A study of Mus musculus with 4 samples.

Results

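Collagen chains are the polypeptides from which collagen molecules are built. They were chosen by name as the protein-coding genes whose symbol is Col, a number, the letter a and 1 digit, and 44 of the 48897 listed genes met this rule, among 21886 protein-coding genes. The libraries were RNA-Seq libraries of retina from C57BL/6 mice (C57BL/6J in the methods of the study) whose genotype is given as wild type, spelled "wide type" in the labels. At postnatal day 3 (P3), the left eyes received 0.6 nmol of an antagomir of miR-124-3p in 1 μl by intravitreal injection (the anti-miR-124 group), and the right eyes the same amount of a scrambled sequence (the NC group). An antagomir is a chemically modified antisense oligonucleotide that binds a mature microRNA, and the retinas were taken at P9. Both groups were therefore injected eyes at the same age, each group was made of mixed retinas from at least 2 litters, and the methods give the number of mixed retinas for a group but not for a library. Each group had 2 libraries. A left-eye and a right-eye library share a number in the deposited table, which makes 2 pairs, named A and B in what follows, so that the libraries are NC A, anti-miR-124 A, NC B and anti-miR-124 B.

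In a collagen molecule, chains wind around each other in a triple helix. Fibrillar collagens such as types I, II, V and XI form fibrils, type IV forms the sheet-like network of basement membranes, and FACIT collagens sit on the surface of fibrils. In the eye, types II, IX and V/XI make up the fibrils of the vitreous, type I is the main collagen of the sclera and cornea, and type IV lies in the inner limiting membrane, the retinal vessels, Bruch's membrane and the lens capsule. Prolyl and lysyl hydroxylases modify the chains before secretion, and lysyl oxidases crosslink them outside the cell.

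The 44 genes fell into 11 fibrillar chains, 6 type IV chains, 7 beaded filament chains (type VI and Col28a1), 3 short chain network chains (type VIII and Col10a1), 9 FACIT chains, 4 transmembrane chains, 2 multiplexin chains (Col15a1 and Col18a1) and 2 others (Col7a1 and Col26a1). In the deposited positions, the 6 type IV genes formed 3 pairs that start head to head on opposite strands. The starts of Col4a1 and Col4a2 on chromosome 8 were 21 bases apart, those of Col4a3 and Col4a4 on chromosome 1 were 6 bases apart, and those of Col4a5 and Col4a6 on chromosome X were 1294 bases apart. No other collagen pair within 200 kb was arranged this way. Col3a1 and Col5a2, whose starts were 191744 bases apart on chromosome 1, lay on opposite strands. The neighbours Col6a1 and Col6a2 on chromosome 10 (102419 bases between starts) lay on the same strand. So did Col6a4, Col6a5 and Col6a6 on chromosome 9 (136185 and 132398 bases between starts). The promoters of the type IV pairs are shown because these genes start head to head. That of Col1a2 is shown because it had one of the largest differences between the anti-miR-124 libraries. The sequences are from RefSeq (GRCm38.p6), which covered 35 of the 44 chains. Each window runs from 250 bases before to 50 after the RefSeq start. For Col4a4 and Col4a5 this differs from the deposited start, which lies further upstream within the window. Capitals mark GGGCGG (the GC box) or CCAAT, also as their reverse complements CCGCCC and ATTGG, except in Col4a4, where GGAATTT are the 7 bases that the deposited positions assign to both Col4a3 and Col4a4. The first line is the 78-base stretch common to the windows of Col4a1 and Col4a2, chr8:11312777-11312854, read on the plus strand. The others are Col4a4, chr1:82586800-82587099 on the minus strand, Col4a5, chrX:141475169-141475468 on the plus strand, Col4a6, chrX:141474027-141474326 on the minus strand, and Col1a2, chr6:4505368-4505667 on the plus strand.
Col4a1 and Col4a2: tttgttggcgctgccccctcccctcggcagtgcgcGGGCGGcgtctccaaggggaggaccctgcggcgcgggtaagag
Col4a4: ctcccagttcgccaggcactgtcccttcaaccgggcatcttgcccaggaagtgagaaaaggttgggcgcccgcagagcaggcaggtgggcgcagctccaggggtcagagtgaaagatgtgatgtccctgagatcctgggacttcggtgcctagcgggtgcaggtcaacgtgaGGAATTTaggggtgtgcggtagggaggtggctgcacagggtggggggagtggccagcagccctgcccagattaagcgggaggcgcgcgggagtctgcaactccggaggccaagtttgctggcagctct
Col4a5: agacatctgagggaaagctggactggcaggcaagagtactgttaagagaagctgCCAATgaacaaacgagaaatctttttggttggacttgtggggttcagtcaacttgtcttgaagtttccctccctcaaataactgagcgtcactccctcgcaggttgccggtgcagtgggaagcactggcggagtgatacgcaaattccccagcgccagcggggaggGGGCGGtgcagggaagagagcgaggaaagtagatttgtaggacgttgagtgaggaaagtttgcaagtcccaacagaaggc
Col4a6: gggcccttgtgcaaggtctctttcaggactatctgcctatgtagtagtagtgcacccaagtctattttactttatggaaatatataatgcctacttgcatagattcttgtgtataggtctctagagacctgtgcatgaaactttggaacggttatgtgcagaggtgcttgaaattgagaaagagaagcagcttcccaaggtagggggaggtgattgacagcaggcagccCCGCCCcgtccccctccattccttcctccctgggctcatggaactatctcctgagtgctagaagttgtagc
Col1a2: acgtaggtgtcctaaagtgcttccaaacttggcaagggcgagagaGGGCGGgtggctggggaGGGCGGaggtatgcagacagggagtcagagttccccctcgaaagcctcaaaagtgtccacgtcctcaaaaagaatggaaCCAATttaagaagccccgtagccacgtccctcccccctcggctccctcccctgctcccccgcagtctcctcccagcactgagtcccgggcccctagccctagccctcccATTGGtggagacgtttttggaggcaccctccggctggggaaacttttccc
The stretch shared by Col4a1 and Col4a2 was 73.1% G or C and held 1 GC box, and the window of Col4a4 was 63.3% G or C and held none of the motifs searched. These were the TATA box as TATAAA, the CCAAT box and the GC box as GGGCGG, each on both strands. The windows of Col4a5 and Col4a6 were 52.7% and 48.3% G or C and held 1 GC box each, and Col4a5 also held 1 CCAAT. The Col1a2 window held 2 GC boxes and 2 CCAAT motifs. Over the 35 collagen windows, GGGCGG was present in 22 (62.9%), CCAAT in 12 (34.3%) and TATAAA in 5 (14.3%). Over all 27025 windows of the table, these shares were 35.9%, 37.9% and 14.2%. A match is a description of the letters in the window and does not show that a factor binds there.

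Between 16317239 and 18726963 reads were counted on genes in a library, and collagen chains took 0.0952% to 0.138% of them. Crx, a transcription factor of photoreceptors, was detected in every library, with 25910 to 30765 counts, and Pax6, which is expressed in amacrine and ganglion cells, with 5351 to 6140 counts. One library stood apart. The 21 lens markers, mostly crystallins, summed to 20430 CPM in NC A (CPM are the counts scaled to a common library size after normalization by the trimmed mean of M-values, TMM) against 38.2 to 58.2 CPM in the other libraries, and all 21 were highest in NC A. All 18 that were tested had an unadjusted p-value under 0.05 by edgeR's quasi-likelihood test, against 1.68% of all genes in that direction. For these 18, the higher NC mean came from NC A. The list sum of NC B, 38.2 CPM, lay below those of both anti-miR-124 libraries, 55.9 and 58.2 CPM. Only 4 lens markers had less in the left-eye library of both pairs, against 24% of all genes. Anti-miR-124 B also differed from the others, as 14 of the 16 microglia markers were highest there, against 30.6% of all genes. The 16 markers summed to 334 CPM there, against 123 to 159 CPM elsewhere.

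Levels of different chains were compared as TPM, in which the counts are divided by the gene length and scaled to a common sum. Of the 44 chains, 34 had a mean of at least 1 TPM and 14 of at least 10 TPM, with a median of 3.32 TPM. Col2a1, the main vitreous collagen chain, was highest at 126 TPM, followed by Col9a1, its FACIT partner, at 91.4 TPM. The basement membrane chains Col4a1 and Col4a2 followed at 68.4 and 59.4 TPM. The transmembrane chain Col23a1 had 37.3 TPM, Col9a3 32.3 TPM and the microfibril chain Col6a1 28.0 TPM. Next were Col18a1, the precursor of endostatin, at 23.8 TPM, Col9a2 and the hemidesmosomal chain Col17a1, both at 21.7 TPM, Col4a5 at 13.2 TPM, Col8a1 at 12.5 TPM, Col5a3 at 11.5 TPM and Col1a2 at 10.7 TPM. The spread over the libraries was often wider than the step to the next chain. The ranges overlapped for Col4a1 (49.3 to 112 TPM) and Col4a2 (42.7 to 102 TPM), although Col4a1 was the higher of the pair in each library. They also overlapped for Col9a1 (79.8 to 116 TPM) and Col4a1, and for Col18a1 (18.4 to 33.1 TPM), Col9a2 (18.7 to 26.4 TPM) and Col17a1 (18.2 to 27.2 TPM). Col2a1, at 121 to 129 TPM, lay above every other chain in each library.

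**Figure D1:**
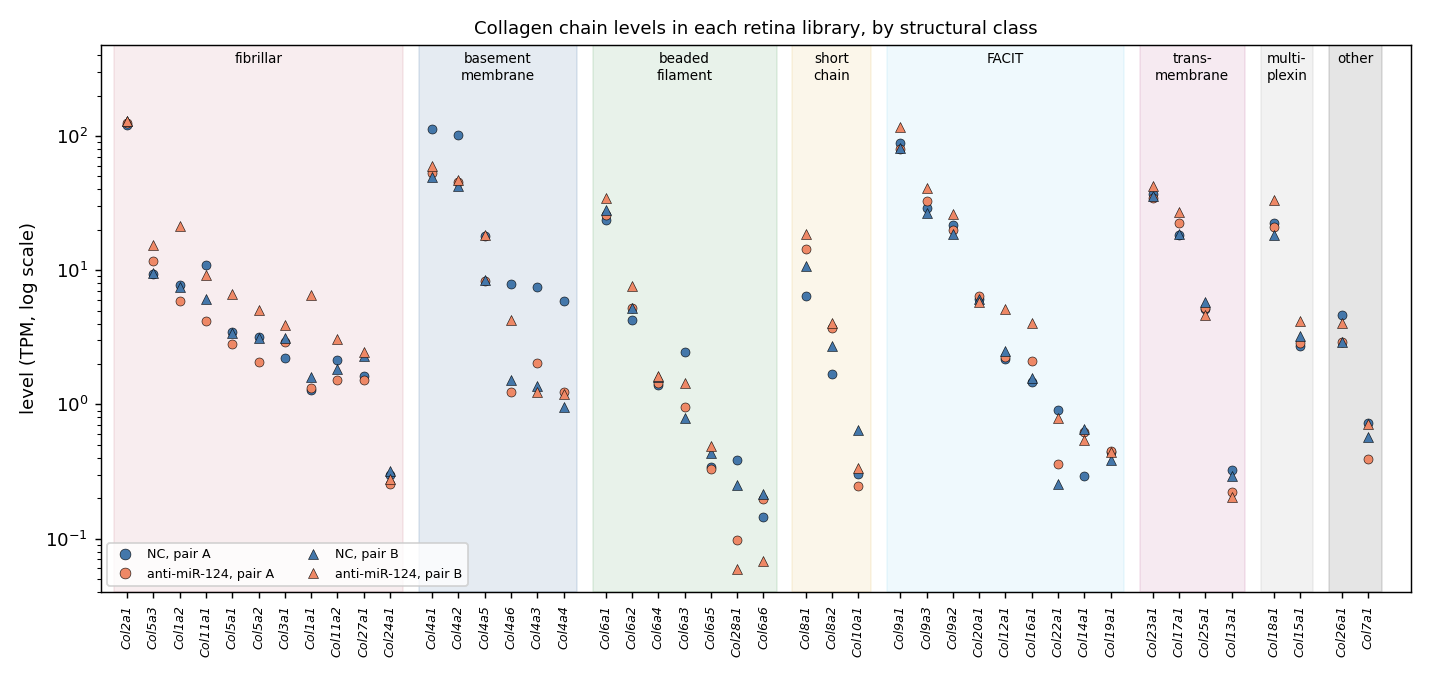
Level of each of the 44 collagen chains in each of the 4 libraries, in TPM on a log axis, grouped by structural class and ordered by mean within a class. Blue marks are NC and orange marks anti-miR-124 libraries, circles are pair A and triangles pair B. The 4 marks of Col2a1 nearly coincide between 121 and 129 TPM, whereas the NC A circle stands above the other marks for Col4a1 to Col4a4 and Col4a6.

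The first comparison was between the eyes, that is, whether chains differed between the anti-miR-124 and NC groups by more than their libraries did among themselves. The clearest candidates were 6 chains with more reads in the anti-miR-124 group, namely Col8a1, Col17a1, Col5a3, Col8a2, Col16a1 and Col9a3, with log2 fold changes of 0.36 to 0.97, but none passed adjustment for the number of genes. By edgeR's quasi-likelihood test, 41 of the 44 chains passed the filter on low counts and 0 stayed under 0.05 after Benjamini-Hochberg adjustment, where the smallest adjusted p was 0.989. The same count over all 17766 genes tested was 0 (0%), with a smallest adjusted p of 0.487, and DESeq2 called 34 genes, of which 0 were collagen chains. At an unadjusted p-value under 0.05, the 6 chains were 14.6% of those tested, against 3.91% of all genes in either direction and 2.23% of all genes for higher genes, and 0 chains were lower, against 1.68% of all genes. The p-values measure the spread between these libraries of mixed retinas. In bulk tissue, more cells that express a chain and more RNA per cell cannot be told apart. Over the 41 chains, 23 fitted log2 fold changes were above 0 and 18 below, with a median of 0.052 (0.001 over all genes) and standard errors (SE) of 0.07 to 0.82.

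Single libraries decided these counts. Without anti-miR-124 A, 8 chains had an adjusted p-value under 0.05 by edgeR's quasi-likelihood test, all higher (Col1a1, Col1a2, Col5a1, Col5a3, Col8a1, Col12a1, Col16a1 and Col17a1), as did 1.36% of all genes. Without NC B, Col4a1, Col4a2 and Col4a4 had one and were lower, as did 0.305% of all genes in either direction. Without NC A or without anti-miR-124 B, 0 chains had one. At an unadjusted p under 0.05, 5 chains were higher and 0 lower without NC A, against 1.34% and 0.432% of all genes tested there. Without anti-miR-124 A, 15 were higher and 1 lower, against 6.36% and 3.7% of all genes. Without NC B, 2 were higher and 6 lower, against 1.1% and 1.67%, and without anti-miR-124 B, 3 were higher and 3 lower, against 2.33% and 2.86%. Without the filter on low counts, 11 chains had an adjusted p under 0.05, of which 6 were higher and 5 lower, as did 1.19% of all genes. The lone library left in a group was assumed to vary like the other group.

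By eye, both anti-miR-124 libraries lay above both NC libraries in TMM-scaled CPM for 7 of the 41 chains (17.1%, against 16.5% of all genes), which were the 6 above and Col6a2. Both lay below for Col25a1, Col24a1 and Col13a1 (7.32%, against 16.8% of all genes). The difference between the group means was larger than both differences within a group for 8 chains (19.5%, against 21.2% of all genes). These shares were near or under those of all genes. The highest of the 4 libraries was anti-miR-124 B for 23 chains (56.1%, against 30.6% of all genes), NC A for 16 (39%, against 25.4%), NC B for 2 (4.88%, against 21.2%) and anti-miR-124 A for 0 (0%, against 22.8%). Collagen levels summed over all 44 chains were 1397 CPM in NC A, 977 in anti-miR-124 A, 949 in NC B and 1243 in anti-miR-124 B. The sums of NC A and anti-miR-124 B were thus above those of the other libraries, 1 from each group, and the groups overlapped.

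**Figure D2:**
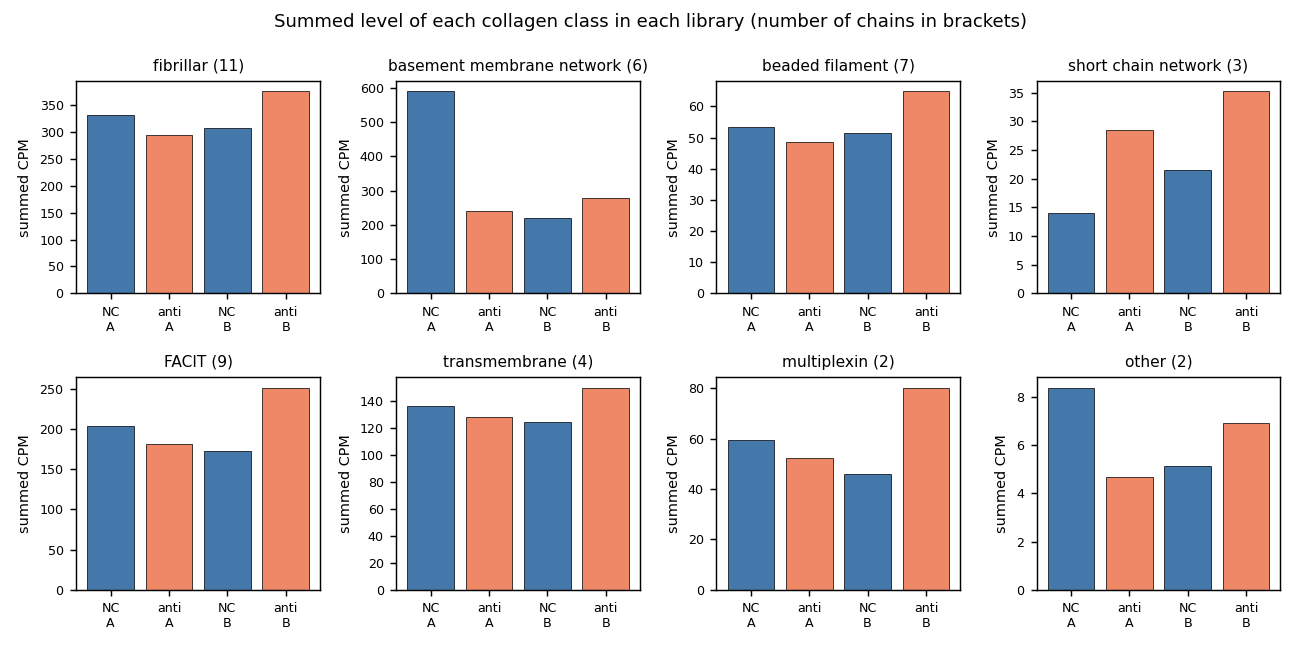
Summed TMM-scaled CPM of each structural class in each library, with bars from 0, each panel on its own scale, 1 bar per library and the number of chains in brackets. Basement membrane chains are highest in NC A (591 CPM, against 220 to 278), short chain network chains are higher in both anti-miR-124 libraries than in both NC libraries, and anti-miR-124 B has the highest bar in the fibrillar, beaded filament, FACIT, transmembrane and multiplexin panels.

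By pair, the 2 pairs gave different pictures. In pair A, 10 chains (24.4%, against 48.3% of all genes) were higher in the left-eye library and the median log2 ratio was -0.21 (-0.009 over all genes). In pair B, 35 chains (85.4%, against 50.3% of all genes) were higher and the median was 0.50 (0.002 over all genes). Higher in both pairs were 9 chains (22%, against 22.8% of all genes), which were Col3a1, Col5a3, Col6a1, Col6a2, Col8a1, Col8a2, Col9a3, Col16a1 and Col17a1. Lower in both were 5 (12.2%, against 24% of all genes), which were Col4a3, Col13a1, Col20a1, Col24a1 and Col25a1. With TPM in place of TMM-scaled CPM, these numbers were 15 and 3. The shares over all genes were not computed on the TPM scale, so these numbers have nothing to be read against. TPM values add up to the same sum in every library, and the lens markers took 6.54% of the TPM sum in NC A and 0.013% to 0.0183% elsewhere.

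**Figure D3:**
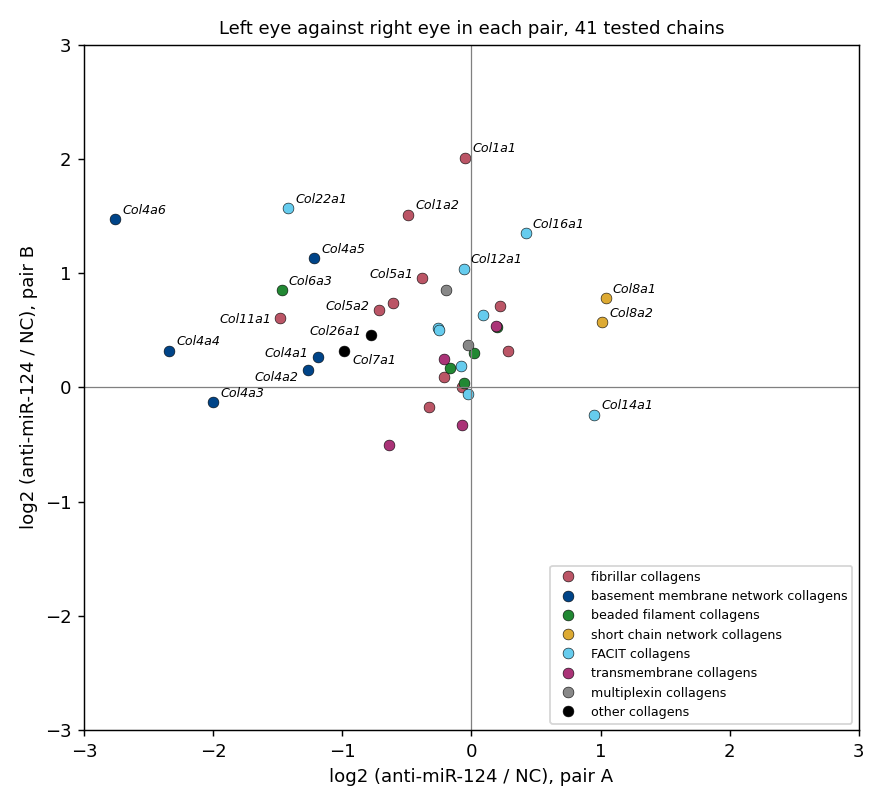
Log2 ratio of the anti-miR-124 to the NC library in pair A (horizontal) and pair B (vertical) for the 41 tested chains, from TMM-scaled CPM with 0.5 added to each count. Each point is 1 chain, coloured by class and named where it lies far from 0. Most points lie above the horizontal line, 35 of 41, and left of the vertical line, with the type IV chains at -1.19 to -2.76 on the pair A axis and Col8a1 and Col8a2 near 1 on it.

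Type IV chains, the network formers of basement membranes, had the lowest median log2 ratio of all classes in pair A, -1.63. All 6 were over 2-fold higher in NC A than in NC B, as were Col6a3 and Col22a1, making 8 of 41 chains (19.5%, against 2.41% of all genes), and 0 chains were over 2-fold lower there (1.25% of all genes). Col4a1, one of the chains of the most widespread type IV molecule, had 276 CPM in NC A, 121 in anti-miR-124 A, 111 in NC B and 134 in anti-miR-124 B. Its partner Col4a2 had 217, 90.03, 82.9 and 92.2 CPM in the same order. NC A was thus more than 2-fold above every other library for both, and the 3 others lay close together with the groups overlapping. The log2 fold changes between the groups were -0.60 (SE 0.37) for Col4a1 and -0.72 (SE 0.39) for Col4a2, with an adjusted p of 0.989 for each by edgeR's quasi-likelihood test.

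Col4a3 and Col4a4, which with Col4a5 form the molecule of the glomerular basement membrane, had the lowest fitted fold changes of all collagen chains. Col4a3 had 21.4 CPM in NC A, 5.33 in anti-miR-124 A, 3.54 in NC B and 3.24 in anti-miR-124 B. Col4a4 had 20.6, 4.04, 3.10 and 3.87 CPM. Here too the single high library was NC A, and anti-miR-124 A lay above NC B for both. Their log2 fold changes were -1.54 (SE 0.75) and -1.57 (SE 0.76), each with an adjusted p of 0.989 by edgeR's quasi-likelihood test. Col4a5 had 38.6 CPM in NC A, 16.6 in anti-miR-124 A, 16.6 in NC B and 36.3 in anti-miR-124 B, and Col4a6, its head-to-head neighbour, had 17.7, 2.58, 3.10 and 8.65 CPM. For this pair of genes, NC A and anti-miR-124 B were both high, and the group difference was small for Col4a5 (log2 fold change -0.05, SE 0.46) and -0.87 (SE 0.82) for Col4a6.

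Of the head-to-head partners, Col4a1 and Col4a2 kept the narrowest TPM ratio in spite of these differences. Col4a1 to Col4a2 was between 1.10 and 1.25 in the 4 libraries, and Col4a3 to Col4a4 between 1.04 and 1.64. Col4a6 to Col4a5 varied more, at 0.444 in NC A, 0.1505 in anti-miR-124 A, 0.181 in NC B and 0.230 in anti-miR-124 B. Between pairs of genes, Col4a3 was 0.0671 of Col4a1 in NC A and 0.021 to 0.0383 of it elsewhere. Some partners that do not start head to head also had narrow ratios, such as Col9a2 to Col9a1 (0.227 to 0.248). Others did not, such as Col6a3 to Col6a1 (0.0284 to 0.105). Reads of overlapping partners could be assigned to either only in the 22 bases shared by Col4a1 and Col4a2 and the 7 shared by Col4a3 and Col4a4.

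Lens markers moved with the type IV chains in NC A. The lens capsule is a basement membrane with type IV collagen made by the lens epithelium. As given above, all 21 lens markers were highest in NC A, at 20430 CPM in sum, whereas NC B had 38.2 CPM and the anti-miR-124 libraries 55.9 and 58.2 CPM. No lens marker was at 0 in any library. The 12 vascular endothelium markers summed to between 401.6 and 435.5 CPM, with 5 of them highest in NC A (25.4% of all genes). Kdr gave 303 to 345 CPM of this, and the other 11 summed to 98.8 CPM in NC A and 81.6 to 90.9 CPM elsewhere. The 12 pericyte and mural markers summed to 201 CPM in NC A and 150.5 to 163.5 CPM elsewhere. Of these 12, 5 were highest in NC A and 4 in anti-miR-124 B, against 25.4% and 30.6% of all genes. Without Rgs5, which gave 142 CPM in NC A, the other 11 summed to 59.8 CPM there and to 62.6 CPM in anti-miR-124 B, against 47.7 and 49.2 CPM in the remaining libraries. Without NC A, the fitted log2 fold changes were 0.20 for Col4a1, 0.14 for Col4a2, 0.27 for Col4a3, 0.35 for Col4a4, 0.68 for Col4a5 and 0.86 for Col4a6, so that each was above 0. The part of the lens, endothelial or mural signal in the type IV levels was not tested.

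**Figure D4:**
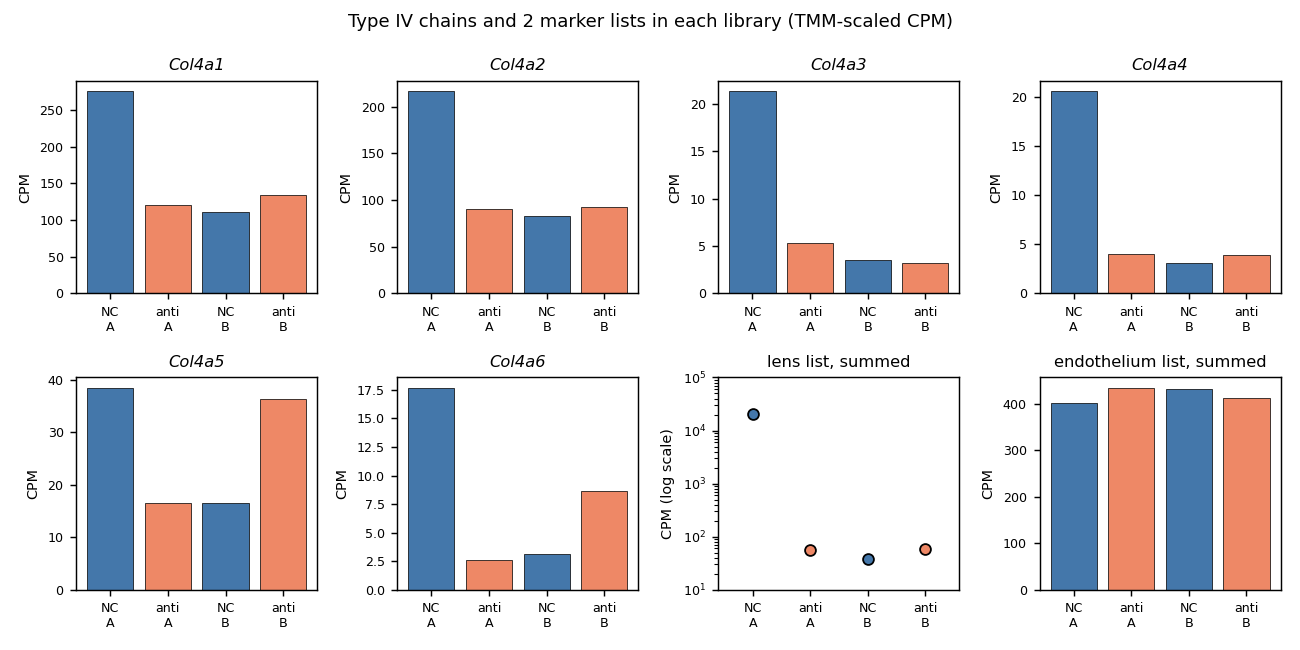
TMM-scaled CPM of the 6 type IV chains in each library, with bars from 0, beside the summed CPM of the lens markers (points on a log axis) and of the endothelium markers (bars from 0). NC A is highest for all 6 chains and for the lens list (20430 CPM, against 38.2 to 58.2), Col4a5 is nearly as high in anti-miR-124 B (36.3 CPM), and the endothelium list, of which Kdr makes up 303 to 345 CPM, lies between 401.6 and 435.5 CPM.

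Among the 11 fibrillar chains, the vitreous chain Col2a1 hardly moved and the type I chains differed mainly in 1 library. Col2a1 had 235 CPM in NC A, 224 in anti-miR-124 A, 228 in NC B and 229 in anti-miR-124 B. Its log2 fold change was -0.03 (SE 0.07), the smallest standard error of all chains, and the NC and anti-miR-124 values overlapped. Col11a1, which joins type II in heterotypic fibrils, had 28.4, 10.1, 14.6 and 22.2 CPM, so that the lowest and the next highest values were both from the anti-miR-124 group. Its log2 fold change was -0.40 (SE 0.42), and its TPM ratio to Col2a1 ran from 0.0336 in anti-miR-124 A to 0.0896 in NC A.

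Col5a3, a type V chain, was the only fibrillar chain with an unadjusted p under 0.05. It had 20.2 CPM in NC A, 23.6 in anti-miR-124 A, 18.8 in NC B and 30.7 in anti-miR-124 B. Both anti-miR-124 libraries were above both NC libraries, with a log2 fold change of 0.48 (SE 0.14, unadjusted p = 0.0129, adjusted p = 0.989 by edgeR's quasi-likelihood test). It was 0.28 without anti-miR-124 B and 0.65 without anti-miR-124 A. The other type V chains did not share this order, as Col5a1 and Col5a2 were lowest in anti-miR-124 A and highest in anti-miR-124 B. The TPM ratio of Col5a3 to Col5a1 was therefore 4.11 in anti-miR-124 A and 2.33 to 2.78 in the other libraries.

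The type I chains, which form the fibrils of sclera, cornea and dermis, stood out in anti-miR-124 B. Col1a1 had 2.48 CPM in NC A, 2.40 in anti-miR-124 A, 2.88 in NC B and 11.7 in anti-miR-124 B. Col1a2 had 13.3, 9.49, 11.9 and 33.8 CPM. In both cases anti-miR-124 A was the lowest and anti-miR-124 B the highest library, so the NC values lay inside the range of the anti-miR-124 group. The log2 fold changes were 1.39 (SE 0.67) for Col1a1 and 0.79 (SE 0.51) for Col1a2, with an adjusted p of 0.989 for each by edgeR's quasi-likelihood test. Without anti-miR-124 B they were -0.16 and -0.40. The TPM of Col1a1 was 0.164 to 0.304 of that of Col1a2. Of the remaining fibrillar chains, Col3a1, the main partner of type I in soft tissue, was higher in both pairs (log2 fold change 0.31, SE 0.25), and Col24a1 had only 10 to 13 counts in a library.

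Comparing libraries of the same group, 9 chains were over 2-fold higher in anti-miR-124 B than in anti-miR-124 A (22%, against 3.88% of all genes) and 0 were over 2-fold lower (1.41% of all genes). They were Col1a1, Col1a2, Col4a5, Col4a6, Col5a1, Col5a2, Col11a1, Col12a1 and Col22a1. Col1a1, Col1a2 and Col12a1, a FACIT chain bound to type I fibrils, differed little between the NC libraries, by -0.21, 0.17 and -0.05 on the log2 scale. The log2 fold change of Col12a1 between the groups was 0.61 (SE 0.35), and -0.09 without anti-miR-124 B. The median log2 difference over the 41 chains was 0.40 between the anti-miR-124 libraries (0.019 over all genes) and 0.15 between the NC libraries (0.001 over all genes). The summed markers of fibroblasts and sclera, of astrocytes and of microglia were also highest in anti-miR-124 B. The fibroblast and sclera list summed to 151 CPM there against 113 to 125 CPM elsewhere. Pdgfra alone gave 108 CPM there. The other 13 genes summed to 43.0 CPM there and 37.6 CPM in NC A, against 23.1 CPM in anti-miR-124 A and 20.6 CPM in NC B. Of the 14 genes, 6 were highest in anti-miR-124 B, against 30.6% of all genes. Dcn and Lum, proteoglycans typical of fibroblasts, had at most 10 and 1 counts in any library, too few to compare libraries. Dpt was at 0 in 3 libraries and had 1 count in anti-miR-124 B. The 5 astrocyte markers summed to 327 CPM in anti-miR-124 B and to 231, 150 and 146 CPM in NC A, anti-miR-124 A and NC B. Of the 5, 3 were highest in anti-miR-124 B, against 30.6% of all genes. Gfap alone gave 199.7 CPM there, and the other 4 summed to 127 CPM there and 138 CPM in NC A. The 10 Müller glia markers summed to 2625 CPM there and to 2160 to 2394 CPM elsewhere, with 5 of them highest there (30.6% of all genes). Without Apoe, which gave 504 CPM there, the other 9 summed to 2120 CPM there and 2116 CPM in NC A. The part of these cell types in the collagen values was not tested.

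**Figure D5:**
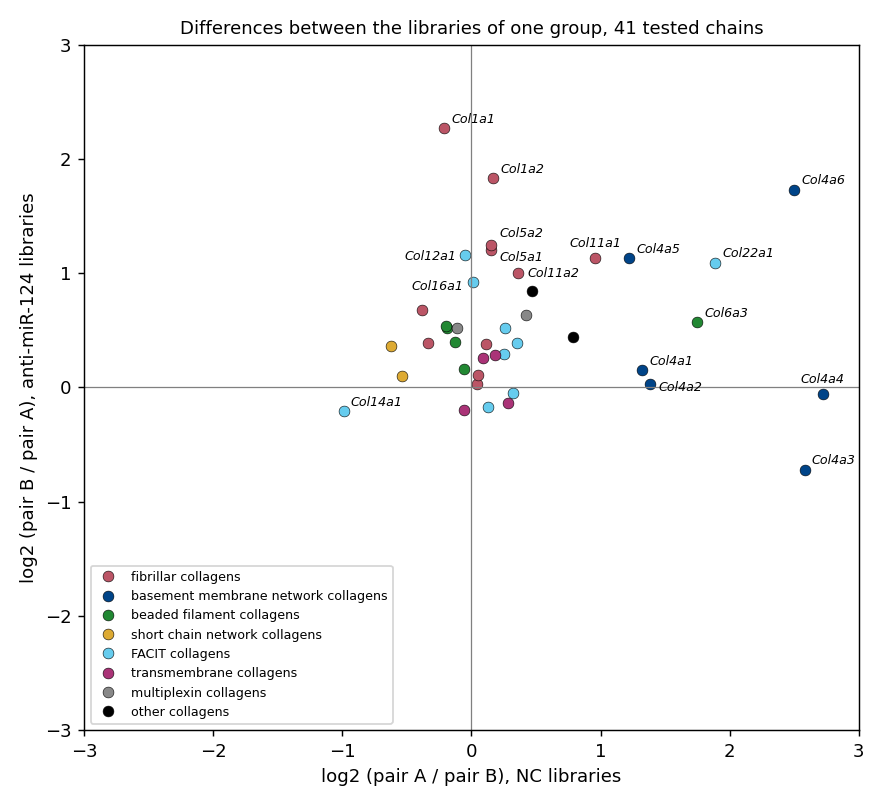
Log2 difference between the libraries of the same group for the 41 tested chains, NC A over NC B (horizontal) against anti-miR-124 B over anti-miR-124 A (vertical), from TMM-scaled CPM with 0.5 added to each count. Each point is 1 chain, coloured by class. Col4a1 to Col4a4 lie far right and near or below the horizontal line, Col1a1 and Col1a2 lie high near the vertical line, and Col4a5, Col4a6 and Col22a1 lie above 1 on both axes.

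The short chain network collagens were the class with the largest median log2 fold change, 0.83 over its 2 tested chains. Col8a1 and Col8a2 form the hexagonal lattice of type VIII collagen, known from Descemet's membrane of the cornea and from vessel walls. Col8a1 had 10.9 CPM in NC A, 22.3 in anti-miR-124 A, 16.7 in NC B and 28.6 in anti-miR-124 B. Col8a2 had 2.92, 5.92, 4.26 and 6.37 CPM. For both chains each left-eye library was above its right-eye partner, and both anti-miR-124 libraries were above both NC libraries. The log2 fold changes were 0.88 for Col8a1 (SE 0.22, unadjusted p = 0.00534) and 0.77 for Col8a2 (SE 0.26, unadjusted p = 0.0228), with an adjusted p of 0.989 for each by edgeR's quasi-likelihood test. When each library was left out in turn, Col8a1 stayed between 0.61 and 1.23 and Col8a2 between 0.53 and 1.07. The TPM of Col8a2 was 0.218 to 0.263 of that of Col8a1. The 7 cornea and conjunctiva markers summed to 2.07 to 2.99 CPM. Krt15, the highest of them, had 1.01 to 1.64 CPM. Krt5 and Krt14, keratins of the corneal and conjunctival epithelium, had at most 1 and 2 counts in a library. The part of the cornea in the type VIII levels was not tested. The 11 pigment epithelium markers had the same lowest library as type VIII, at 54.1 CPM in NC A, 98.8 in anti-miR-124 A, 70.7 in NC B and 75.4 in anti-miR-124 B, and their part was not tested. Col10a1, the chain of hypertrophic cartilage, had 4 to 11 counts and was not tested. Its gene lies within Nt5dc1 on the opposite strand, which had 95 to 123 counts.

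FACIT chains were led by type IX, which coats the vitreous fibrils. Col9a1 had 124 CPM in NC A, 104 in anti-miR-124 A, 103 in NC B and 148 in anti-miR-124 B, with the groups overlapping and a log2 fold change of 0.15 (SE 0.18). Col9a2 had 19.7, 16.6, 15.4 and 21.9 CPM and a log2 fold change of 0.13 (SE 0.18). Col9a3 had 28.2, 29.9, 23.6 and 36.7 CPM. Of the type IX chains, it was the one with both anti-miR-124 libraries above both NC libraries, and its log2 fold change was 0.36 (SE 0.13, unadjusted p = 0.0311, adjusted p = 0.989 by edgeR's quasi-likelihood test). Without anti-miR-124 B it was 0.21, and without NC B 0.24. Per length, Col9a2 was 0.227 to 0.248 and Col9a3 0.325 to 0.414 of Col9a1 in TPM.

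Col16a1, a FACIT chain of several connective tissues, was lower in level but larger in fold change. It had 2.79 CPM in NC A, 3.75 in anti-miR-124 A, 2.77 in NC B and 7.11 in anti-miR-124 B. The NC libraries were nearly equal and both anti-miR-124 libraries lay above them, with a log2 fold change of 0.97 (SE 0.35, unadjusted p = 0.0293, adjusted p = 0.989 by edgeR's quasi-likelihood test). These values rest on 45 to 134 counts, and without anti-miR-124 B the log2 fold change was 0.43. Col20a1 had 255 to 265 counts in every library and a log2 fold change of -0.04 (SE 0.13). Col14a1, Col19a1 and Col22a1 had 9 to 31 counts in a library.

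The transmembrane chains are anchored in the cell membrane and can be shed from it. Col23a1 had 88.5 CPM in NC A, 76.4 in anti-miR-124 A, 77.9 in NC B and 92.7 in anti-miR-124 B, and its log2 fold change was 0.02 (SE 0.11). Col17a1, the hemidesmosomal chain of epithelia, had 33.3, 38.0, 31.3 and 45.4 CPM. Both anti-miR-124 libraries were above both NC libraries, and the log2 fold change was 0.37 (SE 0.11, unadjusted p = 0.0116, adjusted p = 0.989 by edgeR's quasi-likelihood test). Col17a1 stayed between 0.24 and 0.49 when each library was left out in turn. Col25a1, a neuronal chain that binds amyloid fibrils, had its lower values in the anti-miR-124 libraries, with 13.7 CPM in NC A, 13.1 in anti-miR-124 A, 14.3 in NC B and 11.4 in anti-miR-124 B and a log2 fold change of -0.20 (SE 0.13). Col13a1, a chain of the neuromuscular junction, had 8 to 12 counts.

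The multiplexins are basement membrane collagens with glycosaminoglycan side chains. Of these, Col18a1 had 54.1 CPM in NC A, 47.0 in anti-miR-124 A, 40.4 in NC B and 72.9 in anti-miR-124 B. The 2 anti-miR-124 libraries enclosed NC A, and the log2 fold change was 0.35 (SE 0.22). Without anti-miR-124 B it was 0.00. Col15a1 had 84 to 138 counts and a log2 fold change of 0.19 (SE 0.24).

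Among the beaded filament chains, Col6a1 had 30.9 CPM in NC A, 31.3 in anti-miR-124 A, 33.7 in NC B and 41.4 in anti-miR-124 B. The group ranges overlapped and the log2 fold change was 0.17 (SE 0.14). Col6a2 kept a TPM ratio of 0.179 to 0.220 to Col6a1, with which it assembles. Col6a3, the other partner in the classical type VI molecule, did not, with a ratio of 0.105 in NC A and 0.0284 to 0.0418 elsewhere, and it was among the chains over 2-fold higher in NC A than in NC B. Its log2 fold change was -0.52 (SE 0.54), and 0.60 without NC A. Col6a4 and Col6a5 had 58 to 73 and 16 to 26 counts. Col6a6 had 3 to 9 counts and Col28a1 2 to 12, and neither was tested. Col7a1, the anchoring fibril chain, had 19 to 38 counts and Col26a1 61 to 99, both with their highest CPM in NC A. The 24 chains not named for level, p-value or fold change had mean levels of 0.156 to 6.14 TPM. Of these, 21 were tested, with log2 fold changes of -0.87 to 0.61 and a smallest unadjusted p of 0.115 by edgeR's quasi-likelihood test.

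Genes that make, bind and degrade collagen were compared in the same fit, and 0 of them had an adjusted p-value under 0.05 by the Benjamini-Hochberg method in edgeR's quasi-likelihood test or in DESeq2. Of 33 processing enzymes, 30 were tested, 0 had an unadjusted p under 0.05 in either direction, and the median log2 fold change was 0.003. Their highest members by TPM were P4hb, the beta subunit of prolyl 4-hydroxylase, and Ppib, a prolyl isomerase of the endoplasmic reticulum. P4hb had 4509 and 4380 counts in NC A and anti-miR-124 A and 4655 and 5127 in NC B and anti-miR-124 B. Of 10 collagen receptors, 9 were tested and 2 were higher at an unadjusted p under 0.05 (2.23% of all genes). These were Mrc2, an endocytic receptor for collagen fragments, with 46, 68, 27 and 101 counts in the order used above, and Itga10, an integrin subunit, with 9, 28, 14 and 24 counts. Their log2 fold changes were 1.11 (SE 0.37) and 1.11 (SE 0.40). Ddr1, a receptor tyrosine kinase for collagen and the most abundant receptor with Itgb1, had a log2 fold change of 0.11 (SE 0.09).

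Of 16 basement membrane partners, 15 were tested and 1 was lower at an unadjusted p under 0.05 (1.68% of all genes). This was Lama4, a laminin chain of vessels, which had 17.3 CPM in NC A, 13.5 in anti-miR-124 A, 17.8 in NC B and 13.2 in anti-miR-124 B, so that each left-eye library was below both right-eye libraries (log2 fold change -0.40, SE 0.11, unadjusted p = 0.0094 by edgeR's quasi-likelihood test). Of the 16 partners, 5 were highest in NC A and 7 in anti-miR-124 B, against 25.4% and 30.6% of all genes. Of the same 16, 3 were over 2-fold higher in NC A than in NC B, against 2.41% of all genes. Nid1, the linker between laminin and type IV collagen, was named after its values were seen. It had 133 CPM in NC A against 32.0 to 33.4 CPM in the other libraries. Its log2 fold change was -1.34 (SE 0.56), and 0.02 without NC A. Sparc, a collagen-binding glycoprotein and the highest of this list, had a log2 fold change of 0.09 (SE 0.11). Of 8 collagen-binding proteoglycans, 5 were tested and 1 was lower at that limit (1.68% of all genes). This was Ogn, with 404 counts in NC A and 21 to 42 elsewhere, a log2 fold change of -2.91 (SE 1.17) and of 0.38 without NC A. Bgn, the second highest of the list after Prelp, had 234 to 280 counts in pair A, 211 in NC B and 708 in anti-miR-124 B, and its log2 fold change was 0.83 (SE 0.44), or -0.08 without anti-miR-124 B. Of 11 degrading enzymes and inhibitors, 8 were tested and 1 was higher at that limit (2.23% of all genes), the metalloproteinase inhibitor Timp2, with 81.1 CPM in NC A, 94.8 in anti-miR-124 A, 85.2 in NC B and 118 in anti-miR-124 B. Its log2 fold change was 0.36 (SE 0.11, unadjusted p = 0.0168 by edgeR's quasi-likelihood test), and 0.19 without anti-miR-124 B.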

How the data were processed

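Retinal RNA was sequenced from 4 libraries, 2 for each group. The authors deposited read counts per gene, not normalized, with gene lengths and positions. The submitters' processing notes name HISAT2 and mm9, but 36770 of 36834 matched symbols (99.8%), and all 44 collagen chains, overlapped the RefSeq annotation of GRCm38.p6. The counting tool, annotation and strand setting are not given in the sources used here. The library kit is directional, but without the setting, reads of genes on opposite strands may be mixed. The 4 RPKM columns were not used. Columns were assigned to groups by the eye they name, and to pairs by the number they share. Which pair is replicate 1 in the labels is unknown.

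TPM was computed from counts and lengths as in the methods of the study. Groups were compared with edgeR's quasi-likelihood test (edgeR 4.0.16, R 4.3.3) on the whole table of counts, after TMM normalization and the default filter on low counts (17766 genes kept), no covariate, both directions, and Benjamini-Hochberg adjustment at 0.05. The script was tested on simulated data. Ratios by pair used TMM-scaled CPM with 0.5 added to each count. The number of counts, given beside low genes, limits their precision. Libraries with the same group differed by more than sampling noise, so none was a duplicate. Alternatives were other normalizations and filters, leaving out lens or non-coding genes, DESeq2 1.42.0, a block on the pair, and leaving out each library. Values in every library were given for the 15 chains with the highest mean TPM, those with an unadjusted p under 0.05 and those with a log2 fold change of at least 1 in size. Of the other lists, members with an unadjusted p under 0.05 or the highest TPM were named. The chains, lists and tests were chosen with earlier results of these data known. Sites of miR-124-3p and protein sequences were not analysed here. The sum of 1 marker list is not reported here. Figures were drawn with matplotlib 3.10.9 in Python 3.11.15.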

Additional observations from a re-analysis of the deposited data

How the results depend on the processing

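With 2 libraries a group, the number of chains past the adjusted threshold depended on single libraries and on the filter. With other size factors, upper quartile or total count scaling, a mean of at least 10 counts, lens genes or non-coding genes left out, or DESeq2, 0 chains passed and 6 were higher and 0 lower at an unadjusted p under 0.05, as reported. Without the filter on low counts, 11 of 44 chains passed, against 1.19% of all genes. At an unadjusted p, 12 were then higher and 7 lower, against 3% and 1.93% of all genes. Leaving out each library in turn gave 0 to 8 chains past the adjusted threshold, 2 to 15 higher and 0 to 6 lower at an unadjusted p, and a median log2 fold change of -0.16 to 0.27. By pair, TPM gave 15 chains higher and 3 lower, without a share over all genes on that scale. The cause of these shifts was not tested.

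Of the 20 chains named for level, p-value or fold change, 12 changed sign when libraries were left out. Their log2 fold changes ranged from -1.12 to 0.20 for Col4a1, -1.25 to 0.14 for Col4a2, -2.32 to 0.27 for Col4a3 and -2.38 to 0.35 for Col4a4. They ranged from -0.72 to 0.68 for Col4a5, -1.07 to 0.16 for Col11a1, -0.16 to 2.12 for Col1a1 and -0.40 to 1.43 for Col1a2. The ranges were -0.13 to 0.38 for Col9a1, -0.07 to 0.32 for Col9a2, -0.12 to 0.16 for Col23a1 and -0.04 to 0.36 for Col6a1. Chains outside this rule also changed sign, such as Col4a6 (-1.99 to 0.86) and Col6a3 (-1.16 to 0.60). Of 260 values of named chains over 13 alternatives, 16 changed sign and 19 passed the adjusted threshold in the same direction.

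The shared numbers join a left-eye and a right-eye library, but whether these came from the same mice is not stated. Same-numbered libraries deviated from their group means with a correlation of -0.167 across 17766 genes and 0.0274 across 41 chains, and the main comparison had no block. With the replicate block, 0 chains passed the adjusted threshold. At an unadjusted p, 5 were higher and 1 lower, against 1.28% and 0.839% of all genes. With the numbers crossed, an alternative chosen after seeing the data, 1 chain (Col8a1) passed, as did 160 (0.901%) of all genes. At an unadjusted p, 10 chains were higher and 6 lower, against 4.35% and 3% of all genes.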
